A study of Mus musculus with 25 samples.

Results

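The MHC class II set described here holds 7 mouse genes: Cd74, H2-Aa, H2-Ab1, H2-Eb1, H2-DMa, H2-DMb1 and Ciita. They were chosen by name and not by level, as the rows of the table of normalized counts whose Ensembl identifiers map to these symbols. All 7 were found among the 48795 rows of the table. All 7 also reached a mean of at least 10 normalized counts over the 25 libraries, as 14141 rows did in all, so every member entered the tests.

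MHC class II molecules are pairs of an α and a β chain that carry peptides from endosomes to the cell surface, where CD4+ T cells read them. Dendritic cells, macrophages, B cells and thymic epithelium are known for making them, and mouse thymocytes and T cells for making little or none. In thymocytes sorted for RNA sequencing, these transcripts therefore bear on the question of whether antigen-presenting cells remained in the sort. H2-Aa and H2-Ab1 encode the α and β chains of the I-A molecule, and H2-Eb1 encodes the β chain of I-E. Cd74 encodes the invariant chain, which escorts new class II molecules to endosomes. H2-DMa and H2-DMb1 encode the chains of H2-DM, which releases the last fragment of the invariant chain and lets peptides bind. Ciita encodes CIITA, the coactivator that docks on the RFX, CREB and NF-Y factors bound at class II promoters.

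The libraries came from thymi of Rag1-deficient mice aged 7 to 8 weeks that carried the CD2-Cre transgene, with either 1 or 2 loxP-flanked copies of Wnk1. Mice of genotype Wnk1fl/+/CD2Cre/Rag1KO served as controls, here written fl/+, and kept 1 intact copy. Mice of genotype Wnk1fl/fl/CD2Cre/Rag1KO lacked WNK1 where the Cre was active, here written fl/fl. CD2-Cre acts in lymphoid cells from the DN1 stage, so a myeloid or epithelial cell of either genotype may keep the gene. All mice lacked RAG1, and therefore mature T and B cells, and their thymocytes stop before β-selection. An intraperitoneal dose of 150 µg of antibody to CD3ε stood in for the pre-TCR signal, and thymocytes positive for Thy1.2 and negative for CD44, which are DN3 and DN4 cells, were sorted 3, 24 or 48 hr later or, at 0 hr, from uninjected mice. Each library came from a different mouse of 1 experiment, with 3 mice a group and 4 in the fl/fl group at 0 hr.

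The promoter sequences are shown because the letters that CIITA's partner factors read are visible in them. In the RefSeq promoter windows of build GRCm38.p6, which run from 250 bases before a start to 50 after it, 4 of the 7 members were found: H2-Aa, H2-Eb1, H2-DMb1 and H2-DMa. The last 150 bases before the start are printed 5′ to 3′ on the gene's own strand, with matches in capitals, for H2-Aa at chr17:34287824-34287973 on the minus strand, H2-Eb1 at chr17:34305717-34305866 on the plus strand and H2-DMb1 at chr17:34153041-34153190 on the plus strand.
H2-Aa: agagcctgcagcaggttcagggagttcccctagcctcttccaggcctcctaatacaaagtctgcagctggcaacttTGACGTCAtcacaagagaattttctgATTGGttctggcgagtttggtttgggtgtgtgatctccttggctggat
H2-Eb1: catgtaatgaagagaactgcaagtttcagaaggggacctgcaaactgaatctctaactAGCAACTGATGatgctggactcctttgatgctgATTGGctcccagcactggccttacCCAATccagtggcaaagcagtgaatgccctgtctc
H2-DMb1: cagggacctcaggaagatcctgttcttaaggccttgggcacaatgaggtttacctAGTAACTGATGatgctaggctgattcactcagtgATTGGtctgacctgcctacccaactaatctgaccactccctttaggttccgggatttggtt
The capitals mark 3 motifs searched on both strands: the X box, read as AGCAACTGATG in H2-Eb1 and AGTAACTGATG in H2-DMb1 and searched with any base at its positions 3, 4 and 7, the Y box ATTGG, and TGACG, the start of the CREB-type X2 box. H2-Eb1 held the X box 92 bases before its start and H2-DMb1 95 bases before, each followed by a Y box 33 and 34 bases further on. The X box letters were present in 0.968% of 32851 windows, the Y box in 37.4% and TGACG in 20.8%. H2-Aa held the Y box 48 bases before its start and TGACG on both strands, overlapping each other, at 74 and 71 bases. Of the 2 windows listed for H2-DMa, 1 held a Y box, 198 bases before its start, and neither held the other motifs. A match describes the letters and does not show that a factor bound there.

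The libraries held 22527777 to 57304830 reads assigned to genes, and every deposited value was a whole number of reads times a step of 0.613 to 1.66 for its library. Ciita, at 13 to 101 reads a library, was the member with the fewest reads. Wnk1 itself was lower in every fl/fl group, with 6135 ± 1064 normalized counts (mean ± SD, n = 3) in fl/+ and 3445 ± 427 (n = 4) in fl/fl at 0 hr. Xist and Y-linked transcripts placed the mice of 0 and 48 hr as female and those of 3 and 24 hr as male, and the sequencing lanes named in the labels also changed between those times. At 0 hr every fl/+ library was on lane 1 and every fl/fl library on lane 2, and at that time genotype and lane cannot be told apart. The same holds for sex and injection at 3 and 24 hr. Lanes 1 and 2 met only in the fl/+ group of 48 hr, as replicate 3 on lane 1 and replicates 1 and 2 on lane 2. Lane 1 met lane 3 only in the fl/fl group of 48 hr, as replicates 1 and 2 beside replicate 3. Fits with lane as a term rest on these mice wherever 0 or 48 hr enters, and they cannot settle the part of lane there. Of all libraries, 4 stood apart from their groups in other genes: fl/+ replicate 3 at 3 hr, fl/+ replicate 3 at 24 hr, fl/fl replicate 3 at 48 hr and fl/fl replicate 3 at 0 hr. Thy1, the sorted surface marker, was at 10980.1 to 68161 normalized counts, while Ptcra and Rag2, genes of immature thymocytes, were at 3.06 to 5.93 and 4.59 to 17 in fl/fl at 24 hr. In fl/+ at 24 hr Ptcra and Rag2 were at 59.2 to 2344 and 28.8 to 840, with medians of 115 and 31.6. At 0 hr they were at 17024 to 18678 and 3091 to 5012 in fl/+. Cd44, the surface marker gated out, was at 663 to 741 in fl/fl at 24 hr against 127 to 354 in fl/+.

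Every member was read in every library, and the levels set them far apart. Per kilobase of the longest annotated transcript, H2-DMa had the highest level in fl/+ at all 4 times, at 1201 ± 179 normalized counts per kb (mean ± SD, n = 3) at 0 hr, followed by Cd74 at 706 ± 103 and H2-Ab1 at 561 ± 105. The order of Cd74 and H2-Ab1 rests on means whose SDs overlap. In fl/fl at 0 hr Cd74 came first, at 1564 ± 507 per kb (n = 4), and H2-DMa ranked 4 of 7 at 579 ± 125, close to H2-Ab1 at 622 ± 229 and H2-Aa at 621 ± 297. Ciita was lowest in all 8 groups, at 3.23 ± 0.297 to 11.3 ± 1.03 per kb. The single lowest member value of any library was 9.41 normalized counts, or 13 reads, for Ciita in fl/+ replicate 2 at 48 hr.

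**Figure D1:**
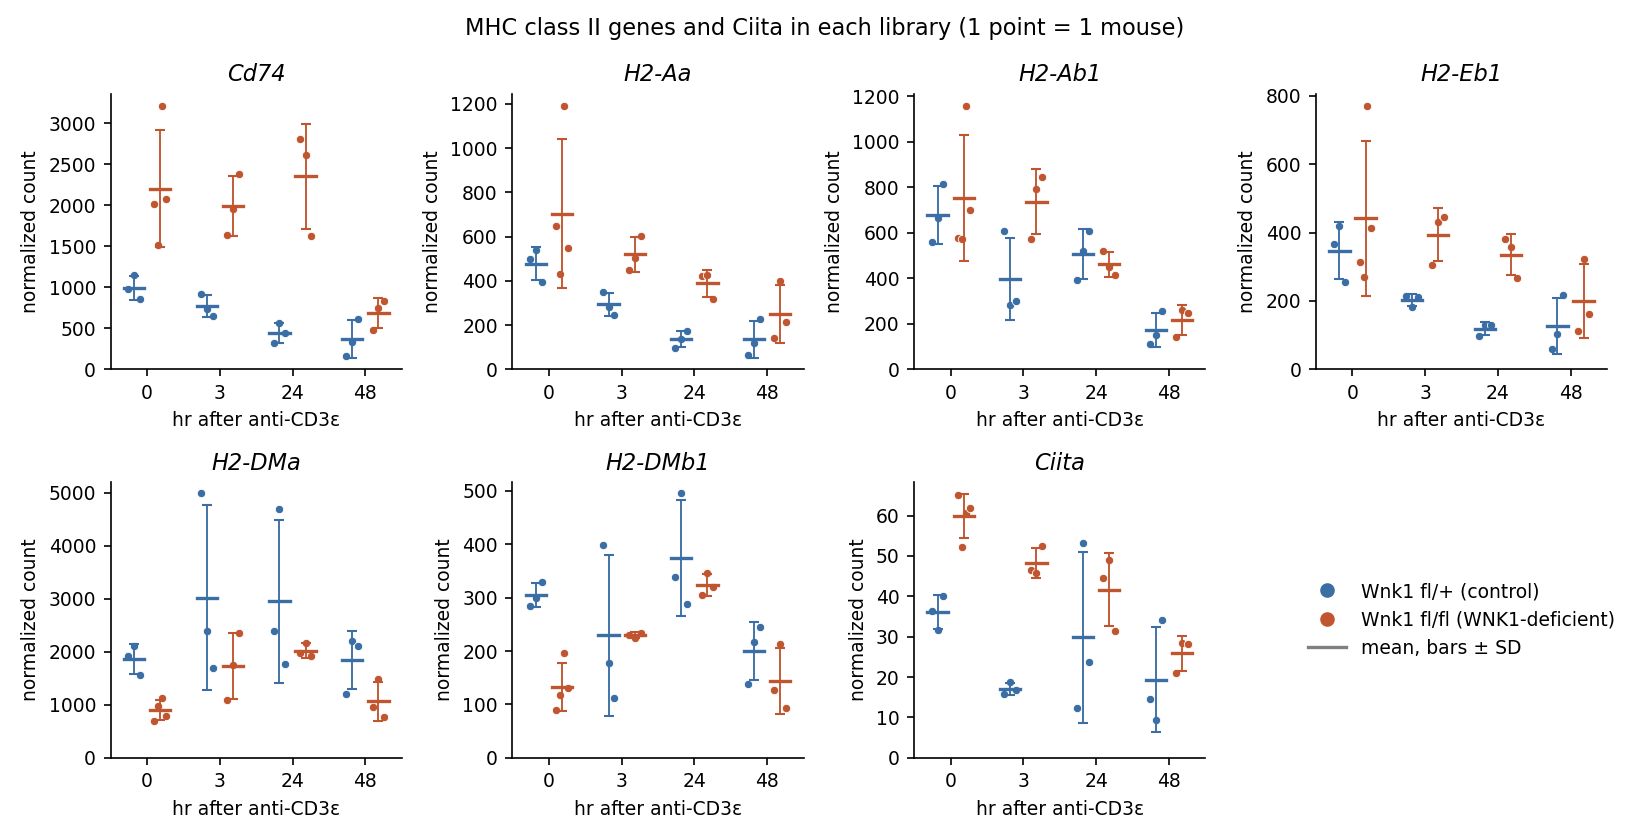
Normalized count of each member (vertical axis, each panel on its own linear scale from 0) against hr after anti-CD3ε (horizontal axis, evenly spaced categories). Each point is 1 mouse, blue for fl/+ and red for fl/fl, with lines at the mean and bars of ± SD. Cd74 was higher in every fl/fl library than in every fl/+ library at 0, 3 and 24 hr, whereas H2-DMa and H2-DMb1 were lower in fl/fl at 0 hr.

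Between the genotypes, members passed in both directions at 0 hr and as higher in fl/fl at 3 and 24 hr. At 0 hr, 1 member was higher in fl/fl (Cd74) and 2 were lower (H2-DMa and H2-DMb1), and 22.1% of all genes tested passed in either direction, 11% as higher and 11.1% as lower. At 3 hr, 2 were higher (Cd74 and Ciita) and 0 lower, where 9.18% of all genes passed, 5.75% as higher and 3.43% as lower. At 24 hr, 3 were higher (Cd74, H2-Aa and H2-Eb1) and 0 lower, where 12.5% of all genes passed, 7.03% as higher and 5.45% as lower. At 48 hr 0 passed by limma at an adjusted p of 0.05, where 13.1% of all genes passed, 6.13% as higher and 6.95% as lower. At 48 hr 3 members had an unadjusted p under 0.05 (Cd74, H2-Aa and H2-DMa), and edgeR and DESeq2 also called 0. The groups did not overlap for 4, 4, 3 and 0 members at 0, 3, 24 and 48 hr, and for 40.5%, 28.2%, 33.9% and 23.3% of all genes. The median log2 fold change of the 7 members was 0.25 at 0 hr, 0.94 at 3 hr, 0.68 at 24 hr and 0.58 at 48 hr, while the median over all genes tested lay between -0.02 and 0.00. Only 7 genes stand behind each count, so none of the counts is read as setting the members apart from all genes.

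**Figure D2:**
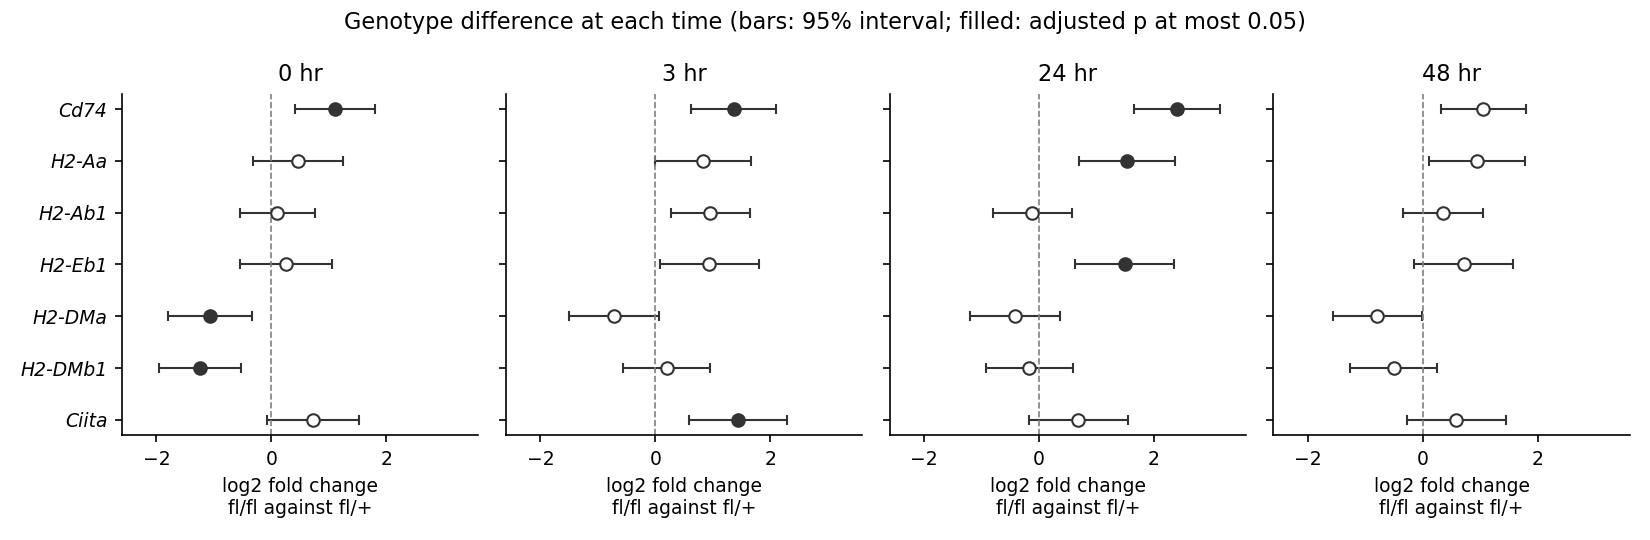
Log2 fold change of fl/fl against fl/+ for each member (horizontal axis) at 0, 3, 24 and 48 hr, with 95% intervals from the fit over all 25 libraries. Filled points passed an adjusted p of 0.05, and they are Cd74, H2-DMa and H2-DMb1 at 0 hr, Cd74 and Ciita at 3 hr, and Cd74, H2-Aa and H2-Eb1 at 24 hr.

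Cd74, the invariant chain, showed the largest genotype difference of the 7 at 24 hr and was called at 3 of the 4 times. At 0 hr the fl/+ libraries held 984, 1146 and 855 normalized counts and the fl/fl libraries 2013, 1520.1, 3211 and 2078, in replicate order. The groups did not overlap, and the difference on the log2(value + 1) scale was 1.10 ± 0.33, adjusted p = 0.0215 (estimate ± SE, n = 3 and 4). The highest fl/fl value belongs to replicate 3, the library that was also highest for the macrophage genes C1qa, C1qb, C1qc and Csf1r, but not for Lyz2. Without that mouse the difference was 0.91, adjusted p = 0.0646. The call was lost without fl/+ replicates 1 or 3 or fl/fl replicate 3 (adjusted p 0.0646 to 0.0726). With lane as a term the difference was 2.49, adjusted p = 0.0123. Its lane part came only from the fl/+ mice of 48 hr, so it does not separate lane from genotype at 0 hr.
At 3 hr fl/+ held 915, 739.6 and 650.4 and fl/fl 1642, 1955 and 2378. All fl/fl libraries were again above all fl/+ libraries, by 1.37 ± 0.36, adjusted p = 0.0175, a call lost without fl/+ replicates 2 or 3 or fl/fl replicate 3 (adjusted p 0.0506 to 0.0733). At 24 hr fl/+ had 319.8, 567 and 441 and fl/fl 2811, 2620.0 and 1626, which is 5.30-fold higher on the fitted scale (2.41 ± 0.36, adjusted p = 0.00017). That call held in the 13 other settings tried and in the 6 fits that left out 1 library of the groups compared. At 48 hr the values were 166, 331 and 614 in fl/+ and 476, 753 and 832 in fl/fl, which overlap, and the difference of 1.05 (95% interval 0.31 to 1.79) missed the threshold at an adjusted p of 0.0567. With libraries set to the same total or the same upper quartile it passed (1.12 and 1.13, adjusted p = 0.0387 and 0.0398). With lane as a term it was -0.04, adjusted p = 0.979, a fit that sets only fl/+ replicate 3 beside fl/fl replicates 1 and 2.

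The chains that bind peptide did not move as a block. H2-Aa, the I-A α chain, and H2-Eb1, the I-E β chain, were higher in fl/fl at 24 hr, and H2-Ab1, the I-A β chain, was not. H2-Aa read 98.7, 136 and 173 in fl/+ and 421, 426 and 318 in fl/fl at 24 hr, with no overlap and a difference of 1.53 ± 0.40, adjusted p = 0.016. H2-Eb1 read 97, 129.8 and 128 and 380.5, 356 and 267 in the same order, again with no overlap (1.49 ± 0.41, adjusted p = 0.0219). H2-Ab1 read 393, 521 and 608 and 519.9, 451 and 414, which overlap, with a difference of -0.12 and a 95% interval of -0.81 to 0.58.
The calls of H2-Aa and H2-Eb1 at 24 hr were both lost when fl/+ replicate 1, fl/fl replicate 1 or fl/fl replicate 2 was left out, where 1 member remained called and the adjusted p was 0.0582 to 0.0809. Their log2 differences stayed between 1.32 and 1.47 in those fits.
At 0 hr none of the 3 chains passed. H2-Aa read 500.3, 537 and 393 in fl/+ and 647, 429, 1189.7 and 548 in fl/fl, H2-Ab1 559, 666 and 813 and 578, 574, 1160.1 and 699.7, and H2-Eb1 367, 420.2 and 255 and 313, 270.4, 770.1 and 414. In all 3 the highest value was that of fl/fl replicate 3, and the other fl/fl mice lay among or near the fl/+ mice. The intervals of the difference were -0.32 to 1.24, -0.55 to 0.75 and -0.55 to 1.06.
At 3 hr H2-Aa read 349, 284 and 247 in fl/+ and 449.7, 504 and 603 in fl/fl, and H2-Eb1 214, 181 and 212 and 305, 430.1 and 446. Neither pair of groups overlapped, as was so for 28.2% of all genes tested, yet neither difference passed (0.82 ± 0.40, adjusted p = 0.221, and 0.94 ± 0.41, adjusted p = 0.17). H2-Ab1 read 607, 284 and 302 and 573, 795 and 844, with 1 fl/+ mouse inside the fl/fl range (0.96 ± 0.33, adjusted p = 0.0786). Without that mouse, fl/+ replicate 1, H2-Ab1 passed (1.31, adjusted p = 0.017), as it did with lane as a term (1.21, adjusted p = 0.0407) and with libraries set to the same total (1.03, adjusted p = 0.0489).
At 48 hr the groups overlapped for all 3 chains. H2-Aa read 62.8, 119 and 226 in fl/+ and 142, 397 and 214 in fl/fl, H2-Ab1 111, 152 and 256 and 140.3, 259.6 and 249, and H2-Eb1 59.4, 104 and 216 and 113, 322 and 162. Leaving out fl/+ replicate 3, the highest control, brought Cd74 and H2-Aa past the threshold at 48 hr (1.51 and 1.39, adjusted p = 0.0098 and 0.0367), and leaving out fl/fl replicate 1 brought Cd74 past it (1.29, adjusted p = 0.043).

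H2-DMa and H2-DMb1, the peptide-loading pair, went the other way at 0 hr. H2-DMa read 1929, 2108 and 1563 in fl/+ and 696, 979, 1132 and 793 in fl/fl, with no overlap and a difference of -1.07 ± 0.35, adjusted p = 0.0335. H2-DMb1 read 285, 299 and 329 and 89.9, 117, 196 and 131, again with no overlap (-1.24 ± 0.34, adjusted p = 0.0131). Groups without overlap made up 40.5% of all genes tested at 0 hr, and 4 of the 7 members were among them.
The H2-DMb1 call held in all 7 fits that left out a library and the H2-DMa call in 3 of 7, being lost without fl/+ replicate 1 (where 1 member in all remained called), fl/+ replicate 2, fl/fl replicate 1 or fl/fl replicate 4 (adjusted p 0.0757 to 0.116). With lane as a term the differences were -0.70 and -0.75 and neither passed (adjusted p = 0.577 and 0.512). That lane part also came only from the fl/+ mice of 48 hr and cannot separate lane from genotype at 0 hr.
At the later times no difference passed for either gene. H2-DMa read 4986, 2383 and 1688 in fl/+ and 1097, 1742 and 2349 in fl/fl at 3 hr, 2387, 4686 and 1777 and 1974, 2174 and 1919 at 24 hr, and 1209.8, 2211 and 2113 and 954, 1482 and 766 at 48 hr. Its fl/+ groups spread widely at 3 and 24 hr, where 1 mouse each lay far above the others. H2-DMb1 read 399, 177 and 112 and 231, 224 and 235 at 3 hr, 339, 496 and 287 and 306, 345 and 319.8 at 24 hr, and 139, 216 and 244 and 127, 213 and 93.5 at 48 hr. The 95% intervals of the H2-DMb1 difference were -0.56 to 0.96, -0.93 to 0.59 and -1.27 to 0.25 at the 3 times. H2-DMb1 has a close copy, H2-DMb2, beside it on chromosome 17, and how reads were divided between the pair cannot be seen in these values.

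Ciita, the coactivator, had the lowest counts of the 7. At 0 hr it was at 36.3, 31.7 and 40.2 in fl/+ and 65, 52.2, 60.5 and 61.9 in fl/fl. The groups did not overlap, but the difference did not pass (0.72 ± 0.39, adjusted p = 0.187). At 3 hr it was at 15.7, 18.8 and 16.8 in fl/+ and 46.4, 45.7 and 52.6 in fl/fl, a difference that passed (1.45 ± 0.41, adjusted p = 0.0302).
No library of the 2 groups lay between them at 3 hr, but leaving out any 1 of the 6 took the adjusted p to between 0.0575 and 0.0869. Of the 2 members called at 3 hr, none remained without fl/+ replicate 2, fl/+ replicate 3 or fl/fl replicate 3, and 1 remained without fl/fl replicate 1 or fl/fl replicate 2. At 24 hr Ciita read 12.3, 53.2 and 23.9 and 44.5, 48.9 and 31.5, and at 48 hr 14.6, 9.41 and 34 and 20.9, 28.4 and 28.3. Both pairs of groups overlapped, with 1 high fl/+ mouse each time. Without the high mouse at 24 hr, fl/+ replicate 2, the difference was 1.2 with an adjusted p of 0.0456.

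After injection, the class II chains and Cd74 fell in both genotypes by 48 hr, and neither H2-DM gene passed at that time. In fl/+, no member passed at 3 hr by limma (2 had an unadjusted p under 0.05, edgeR called 0 and DESeq2 1), where 37% of all genes passed. At 24 hr 3 members had fallen in fl/+, Cd74 (-1.19 ± 0.36, adjusted p = 0.0132), H2-Aa (-1.83 ± 0.40, adjusted p = 0.0014) and H2-Eb1 (-1.53 ± 0.41, adjusted p = 0.00699), where 33.9% of all genes passed and 16.9% were lower. At 48 hr 5 members had fallen, where 42.4% of all genes passed and 20.8% were lower. They were H2-Ab1 (-2.04 ± 0.33, adjusted p = 4.88e-05), H2-Aa (-1.98 ± 0.40, adjusted p = 0.000456), H2-Eb1 (-1.62 ± 0.41, adjusted p = 0.00337), Cd74 (-1.61 ± 0.36, adjusted p = 0.00102) and Ciita (-1.05 ± 0.41, adjusted p = 0.0457). The groups did not overlap with those of 0 hr for 3, 3 and 5 members at 3, 24 and 48 hr, and for 48.3%, 42.8% and 50.2% of all genes.
The Ciita call in fl/+ at 48 hr held in 5 of 12 other settings, edgeR (adjusted p = 0.0915) and DESeq2 (adjusted p = 0.0821) not among them, and with lane as a term its difference was -0.07, adjusted p = 0.931. It was lost without fl/+ replicates 1, 2 or 3 of 0 hr or fl/+ replicates 1 or 2 of 48 hr (adjusted p 0.0675 to 0.227), and that of Cd74 at 24 hr without fl/+ replicate 2 of 0 hr or fl/+ replicate 1 of 24 hr (adjusted p 0.0536 to 0.0799). H2-DMa was at 1844 ± 552 (mean ± SD, n = 3) in fl/+ at 48 hr against 1867 ± 278 at 0 hr, a difference of -0.06 with a 95% interval of -0.84 to 0.72. In fl/fl, no member passed at 3 hr (2 had an unadjusted p under 0.05, edgeR called 0 and DESeq2 1), where 24.7% of all genes passed. At 24 hr 2 members had risen in fl/fl, H2-DMa (1.19 ± 0.35, adjusted p = 0.0128) and H2-DMb1 (1.33 ± 0.34, adjusted p = 0.00504), where 30.4% of all genes passed and 16% were higher. Cd74 in fl/fl at 24 hr was 2353 ± 636, beside 2206 ± 715 (n = 4) at 0 hr.
At 48 hr 5 members had fallen in fl/fl, where 26.8% of all genes passed and 12.5% were lower: H2-Ab1 (-1.78 ± 0.31, adjusted p = 0.000241), Cd74 (-1.67 ± 0.33, adjusted p = 0.000839), H2-Aa (-1.50 ± 0.38, adjusted p = 0.00524), Ciita (-1.19 ± 0.39, adjusted p = 0.0263) and H2-Eb1 (-1.16 ± 0.39, adjusted p = 0.0301). The H2-Eb1 call was lost without fl/fl replicates 3 or 4 of 0 hr or fl/fl replicates 1 or 3 of 48 hr (adjusted p 0.0568 to 0.212), that of Ciita without fl/fl replicates 1, 3 or 4 of 0 hr or fl/fl replicate 1 of 48 hr (adjusted p 0.0507 to 0.122) and that of H2-Aa without fl/fl replicate 1 of 48 hr (adjusted p 0.0592). Cd74 and H2-Ab1 were then the 2 members still called without fl/fl replicate 1 of 48 hr, and 3 members were called without fl/fl replicate 3 or replicate 4 of 0 hr.
The fl/fl groups did not overlap with those of 0 hr for 1, 5 and 4 members at the 3 times, and for 42.3%, 50% and 33.9% of all genes. With lane as a term, fl/+ kept no call at 24 hr and only H2-Ab1 at 48 hr (-1.39, adjusted p = 0.0163), and fl/fl kept no call at 24 hr and all 5 at 48 hr. These fits tie the lanes of 0 hr to each other and to the other lanes only through the mice of 48 hr. The comparisons of 1 genotype share its 0 hr mice, so their values are not independent of each other.

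Whether the time course itself differed between the genotypes was tested with an interaction term, and no member passed at 3, 24 or 48 hr. By limma 1 member had an unadjusted p under 0.05 at 3 hr (H2-DMb1, 1.44, adjusted p = 0.274), 3 did at 24 hr and none at 48 hr, and edgeR and DESeq2 called none at any time. The 3 at 24 hr were Cd74 (1.30, 95% interval 0.29 to 2.31), H2-Eb1 (1.23, 0.06 to 2.41) and H2-DMb1 (1.07, 0.03 to 2.11). Of all genes tested 0.0707%, 0.658% and 1.36% passed at the 3 times. H2-DMb1 passed at 3 hr without fl/+ replicate 1 (1.94, adjusted p = 0.0234).

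Ratios within a library do not depend on how it was scaled, and they set the members apart more finely. H2-Eb1 and H2-Aa kept a narrow ratio, 0.483 to 0.983 over the 25 libraries. H2-Ab1 to H2-Aa was 3.98, 3.82 and 3.51 in fl/+ at 24 hr, above all 22 other libraries, which ranged from 0.654 to 2.07. In fl/fl at 24 hr it was 1.24, 1.06 and 1.30.
The fl/+ mice of 24 hr thus stood alone, and they are the group in which H2-Aa had fallen from 0 hr and H2-Ab1 had not passed the test. Cd74 to H2-Aa was 1.97 to 2.17 in fl/+ and 2.70 to 3.79 in fl/fl at 0 hr, and 2.54 to 4.16 and 5.11 to 6.68 at 24 hr. It was 2.61 to 2.63 and 3.65 to 3.94 at 3 hr, and 2.64 to 2.77 and 1.90 to 3.89 at 48 hr. The genotypes thus overlapped for this ratio at 48 hr and not at the earlier times. H2-DMa to H2-Aa was 3.85 to 3.97 in fl/+ and 0.952 to 2.28 in fl/fl at 0 hr, and 10.2 to 34.4 and 4.69 to 6.02 at 24 hr. It was 6.83 to 14.3 and 2.44 to 3.89 at 3 hr, and 9.34 to 19.3 and 3.57 to 6.74 at 48 hr, with no overlap of the genotypes at any of the 4 times. These ratios were picked after their values had been seen and are given without a test.

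**Figure D3:**
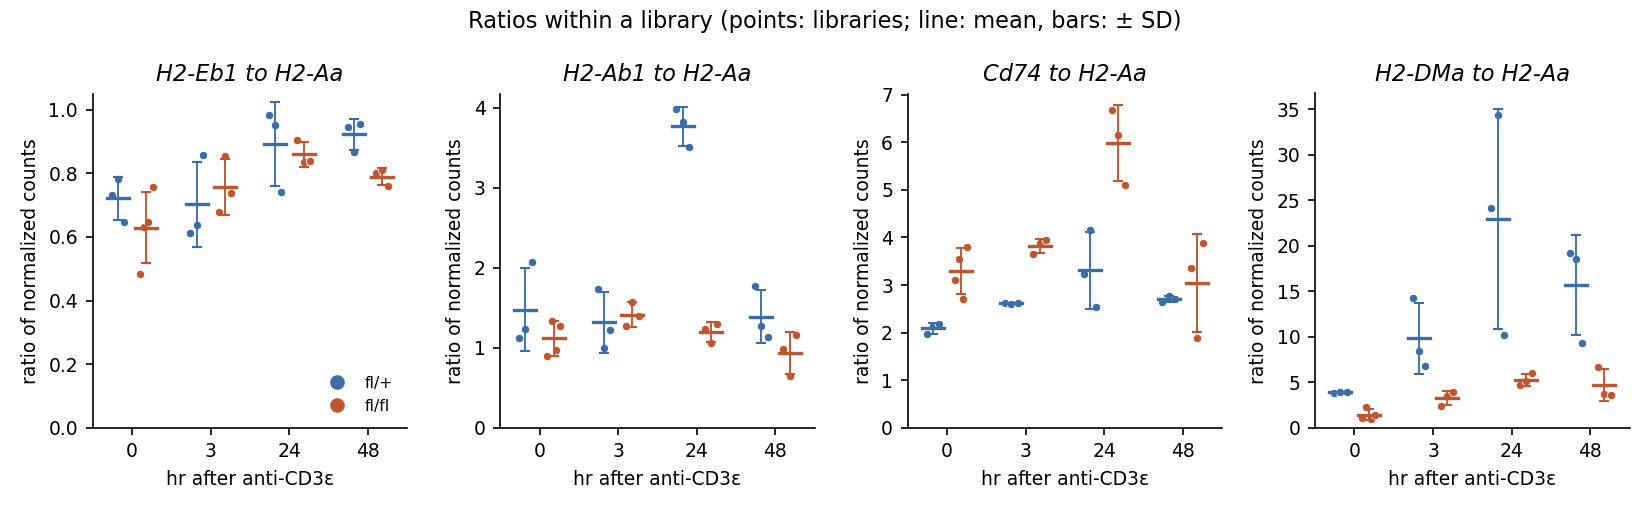
Ratio of 2 members' normalized counts within each library (vertical axis, linear from 0) against hr after anti-CD3ε, with 1 point a mouse, blue for fl/+ and red for fl/fl, lines at the mean and bars of ± SD. The fl/+ mice at 24 hr stand alone for H2-Ab1 to H2-Aa, at 3.51 to 3.98, while H2-Eb1 to H2-Aa stays in the range 0.483 to 0.983.

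Across libraries the members fell into 2 sets, described here by Pearson's correlation of log2(value + 1) over 25 libraries that share scaling and, in part, sex and lane. Within Cd74, H2-Aa, H2-Ab1, H2-Eb1 and Ciita, r was 0.69 to 0.97, with H2-Aa and H2-Eb1 closest at 0.97. H2-DMa and H2-DMb1 correlated at 0.82 with each other. Between the 2 sets r was -0.30 to 0.33. After the group means were taken out, which leaves the differences between mice of 1 group, r between H2-DM and the 3 chains or Cd74 was 0.48 to 0.64, and that between H2-DM and Ciita was 0.21 to 0.26. H2-DM thus varied with the chains among mice of 1 group while its group means took another course.

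The genes around the members were read from 3 lists: accessory and processing genes, factors of class II promoters, and the route from interferon-γ to CIITA. Their counts between genotypes, and those of the marker lists below, stand beside the shares of all genes tested. As higher and as lower, 11% and 11.1% passed at 0 hr and 5.75% and 3.43% at 3 hr. At 24 hr 7.03% and 5.45% passed, and at 48 hr 6.13% and 6.95%. Of 13 accessory genes 11 were tested, and 1 passed as higher and 2 as lower in fl/fl at 0 hr, 0 at 3 hr, 1 as lower at 24 hr and 3 as lower at 48 hr. Their median log2 difference was -0.40, -0.11, -0.18 and -0.47 at 0, 3, 24 and 48 hr. H2-DMb2, the second β chain of H2-DM, was lower at 0 hr, at 164, 149 and 147 in fl/+ and 45.6, 65.3, 60.5 and 56.4 in fl/fl (-1.42 ± 0.43, adjusted p = 0.0221), a call lost with lane as a term (-0.24, adjusted p = 0.857) and without fl/+ replicates 1 or 2 or fl/fl replicate 1 (adjusted p 0.0598 to 0.0802). Ctsb, the lysosomal protease cathepsin B, was also lower there (-0.69 ± 0.17, adjusted p = 0.00591). The higher one, H2-Eb2, stood at 1.17, 0 and 0 and 8.30, 1.54, 2.82 and 4.90, close to the limit of 3 reads, so no fold is given.
H2-Oa and H2-Ob, the chains of H2-DO, which restrains H2-DM, rose in fl/+ and were lower in fl/fl at 48 hr. H2-Oa went from 373, 366 and 295 at 0 hr to 1980.2, 2683 and 2840.4 at 48 hr in fl/+ (2.85 ± 0.43, adjusted p = 1.94e-05) and read 591, 1289 and 454 in fl/fl at 48 hr (-1.81 ± 0.43, adjusted p = 0.00835 against fl/+). H2-Ob went from 72.6, 97.1 and 126 to 1270.4, 1577 and 2349 in fl/+ (4.11 ± 0.64, adjusted p = 2.57e-05) and read 277, 359 and 122 in fl/fl at 48 hr (-2.86 ± 0.64, adjusted p = 0.0056 against fl/+). Ctss, cathepsin S, which trims the invariant chain, rose by 48 hr in both genotypes (3.85 ± 0.43, adjusted p = 4.81e-07 in fl/+, and 2.66 ± 0.40, adjusted p = 5.34e-05 in fl/fl). With lane as a term neither H2-DO chain passed between genotypes at 48 hr (adjusted p = 0.0865 and 0.1), and H2-Oa was not called without fl/fl replicate 3 (adjusted p 0.051). The lane fit there sets only fl/+ replicate 3 beside fl/fl replicates 1 and 2.
In fl/+ these 3 genes thus rose while the class II chains fell, in the same mice. Lgmn, the protease legumain, was lower in fl/fl at 24 hr (-1.24 ± 0.38, adjusted p = 0.0354) and at 48 hr (-1.70 ± 0.38, adjusted p = 0.0058), and its call at 24 hr was lost without fl/+ replicates 1 or 2 or fl/fl replicates 1, 2 or 3 (adjusted p 0.0782 to 0.132). H2-Ea, which encodes the I-E α chain that pairs with the product of H2-Eb1, was at 0 in all 25 libraries, which allows up to 3 reads in each, or 1.84 to 4.99 normalized counts.

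Of the 8 promoter factors, all tested, 0 were higher and 2 lower in fl/fl at 0 hr, 0 passed at 3 hr, 1 was higher at 24 hr and 1 was lower at 48 hr. Their median log2 difference was -0.13, -0.12, -0.00 and -0.12 at the 4 times. Rfxank, a subunit of the RFX complex, was at 1537, 1449 and 1338 in fl/+ and 782, 891, 971 and 789 in fl/fl at 0 hr (-0.75 ± 0.15, adjusted p = 0.00164), and was lower again at 48 hr (-0.55 ± 0.16, adjusted p = 0.0321), a call lost without fl/+ replicates 2 or 3 or fl/fl replicates 1 or 3 (adjusted p 0.0688 to 0.142). Nfya, a subunit of NF-Y, was lower at 0 hr by a small amount (-0.35 ± 0.11, adjusted p = 0.03), a call lost without fl/+ replicates 1, 2 or 3 or fl/fl replicates 2, 3 or 4 (adjusted p 0.0514 to 0.0846). Nlrc5, the relative of CIITA that acts on class I genes, was higher at 24 hr (0.85 ± 0.28, adjusted p = 0.0488), which was 3453, 3052 and 1758 in fl/+ and 4413, 5089 and 4877 in fl/fl. Its call was lost without fl/+ replicate 3 or fl/fl replicates 1, 2 or 3 (adjusted p 0.09 to 0.242).

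Of the 9 genes on the route from interferon-γ to CIITA, all tested, 2 were higher and 1 lower in fl/fl at 0 hr, 2 higher at 3 hr, 2 higher and 1 lower at 24 hr, and 1 lower at 48 hr. Their median log2 difference was -0.03, 0.29, 0.04 and -0.31 at the 4 times. Ifng, which encodes interferon-γ, was at 0 in all 3 fl/+ libraries at 0 hr and at 19.4, 22.3, 12.7 and 29.4 in fl/fl, at least 6.37-fold higher if each fl/+ library is set at the limit of 3 reads. At 3 hr Ifng was at 45.1, 91 and 26.2 in fl/+ and 241, 174 and 386 in fl/fl (2.38 ± 0.45, adjusted p = 0.0019). At 24 hr it was at 4.93, 3.33 and 3.67 and 18.5, 16.8 and 13.1 (1.79 ± 0.45, adjusted p = 0.0127), a call lost without fl/fl replicate 1 (adjusted p 0.054). Ciita passed between genotypes at 3 hr and not at 0 or 24 hr, and a link between Ifng and Ciita was not tested.
Irf1, a transcription factor that interferon-γ induces, was higher in fl/fl at 3 hr (0.70 ± 0.15, adjusted p = 0.00465), and Jak2, a kinase of the interferon-γ receptor, at 0 hr (0.92 ± 0.21, adjusted p = 0.00414). Irf8 was lower in fl/fl at 0 hr (-1.46 ± 0.23, adjusted p = 0.000147). Socs1, an inhibitor of this signal, was higher in fl/fl at 24 hr (0.84 ± 0.27, adjusted p = 0.0414), and Ifngr2, a receptor chain, was lower at 24 hr (-0.61 ± 0.20, adjusted p = 0.0478) and 48 hr (-0.63 ± 0.20, adjusted p = 0.0388). The Socs1 call was lost without fl/+ replicates 1 or 3 or fl/fl replicates 2 or 3 (adjusted p 0.132 to 0.191). That of Ifngr2 was lost at 24 hr without fl/+ replicates 1, 2 or 3 or fl/fl replicates 1 or 2 (adjusted p 0.0851 to 0.225) and at 48 hr without fl/+ replicates 1, 2 or 3 or fl/fl replicates 1 or 3 (adjusted p 0.0507 to 0.13).

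Which cells the class II reads came from was examined with marker lists for each kind of cell that displays class II. In sorted bulk RNA, fewer cells of a type and less RNA per cell cannot be told apart. Nor can marker reads from the sorted thymocytes themselves be told from those of another cell. Markers of macrophages were present: Csf1r, the receptor that macrophages need, at 8.22 to 221 normalized counts over the 25 libraries, Adgre1 (F4/80) at 5.75 to 87.3, Cd68 at 49.5 to 177, and the complement genes C1qa, C1qb and C1qc, which thymic macrophages make, at a sum of 59.4 to 1350.2. The 15 genes of the macrophage list, with 12 tested, summed to 2768 to 3279.7 in fl/+ and 1153 to 3016 in fl/fl at 0 hr and to 456 to 1191 and 1421 to 2187 at 24 hr. At 0 hr Lyz2, the macrophage lysozyme, carried most of that sum in fl/+, at 2203, 1763 and 1654 against 839.6, 407, 746 and 545 in fl/fl (-1.60 ± 0.49, adjusted p = 0.0235), a call lost with lane as a term (-0.30, adjusted p = 0.869) and without fl/+ replicates 1 or 2 or fl/fl replicates 2 or 4 (adjusted p 0.0556 to 0.0965).
Of the 12 tested, 1 was higher in fl/fl at 0 hr (Fcer1g) and 2 lower (Lyz2 and Itgam), 0 passed at 3 hr, 2 were higher at 24 hr (Tyrobp and Fcer1g) and 1 at 48 hr (Fcer1g). Their median log2 difference was -0.19, 0.47, 0.89 and 0.77 at the 4 times, against 0.25, 0.94, 0.68 and 0.58 for the members. Fcer1g and Tyrobp encode signalling adaptors that natural killer cells share with myeloid cells. Fcer1g at 24 hr was 58.4, 106 and 38.5 in fl/+ and 1044, 972 and 506 in fl/fl (3.67 ± 0.40, adjusted p = 7.43e-06). It was the largest part of the macrophage sum in fl/fl at 24 hr, with a mean of 841 beside 211 for Lyz2, the next highest. In fl/+ at that time these means were 67.8 and 263. The higher sums in fl/fl at 24 hr thus rest largely on this shared adaptor and are not read as more macrophage transcript. The calls of Fcer1g and Itgam at 0 hr were lost without fl/+ replicates 1 or 2 or fl/fl replicates 3 or 4 (adjusted p 0.0572 to 0.109) and without fl/+ replicates 1, 2 or 3 or fl/fl replicate 3 (adjusted p 0.05 to 0.0669), and that of Tyrobp at 24 hr without fl/+ replicates 1 or 3 or fl/fl replicates 1 or 2 (adjusted p 0.084 to 0.113). Csf1r, Adgre1, Cd68 and the C1q genes, in contrast, passed in no genotype comparison. At 24 hr Csf1r was 8.22, 33.3 and 28.4 and 37.8, 27.5 and 36.7, with a 95% interval of -0.54 to 1.98 on the difference.
Over time in fl/+, 7 of the 12 were lower and 1 higher (Itgam) at 24 hr, and 10 were lower and 0 higher at 48 hr, among the lower C1qb (-2.31 ± 0.60, adjusted p = 0.00379 at 48 hr) and Csf1r (-1.55 ± 0.60, adjusted p = 0.0443), which is the direction of the class II chains. In fl/fl, 3 of the 12 were lower (Adgre1, Lyz2 and Mrc1) and 3 higher (Itgam, Tyrobp and Fcer1g) at 24 hr, and 2 were lower (Lyz2 and Mrc1) and 1 higher (Itgam) at 48 hr. Of all genes tested, 16.9% and 20.8% were lower in fl/+ at 24 and 48 hr, and 14.3% and 12.5% in fl/fl.

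Set against the C1q genes of the same library, Cd74 was higher in each fl/fl library than in each fl/+ library of the same time at 0, 3 and 24 hr. Cd74 to the C1q sum was 1.53, 1.70 and 1.42 in fl/+ at 0 hr and 5.68, 4.95, 2.38 and 3.82 in fl/fl, and at 24 hr 4.14, 2.53 and 1.58 and 9.0, 8.01 and 4.31. Over all 12 fl/+ libraries it ranged from 1.34 to 4.14, and over the 13 fl/fl libraries from 1.99 to 9.0. H2-Aa to the C1q sum ranged from 0.507 to 1.28 in fl/+ and from 0.688 to 1.83 in fl/fl. The fl/fl mouse with the most Cd74 at 0 hr, replicate 3, had the most C1q, at 1350.2, and the most Csf1r, at 221. The part of these cells in the members' differences was not tested.

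**Figure D4:**
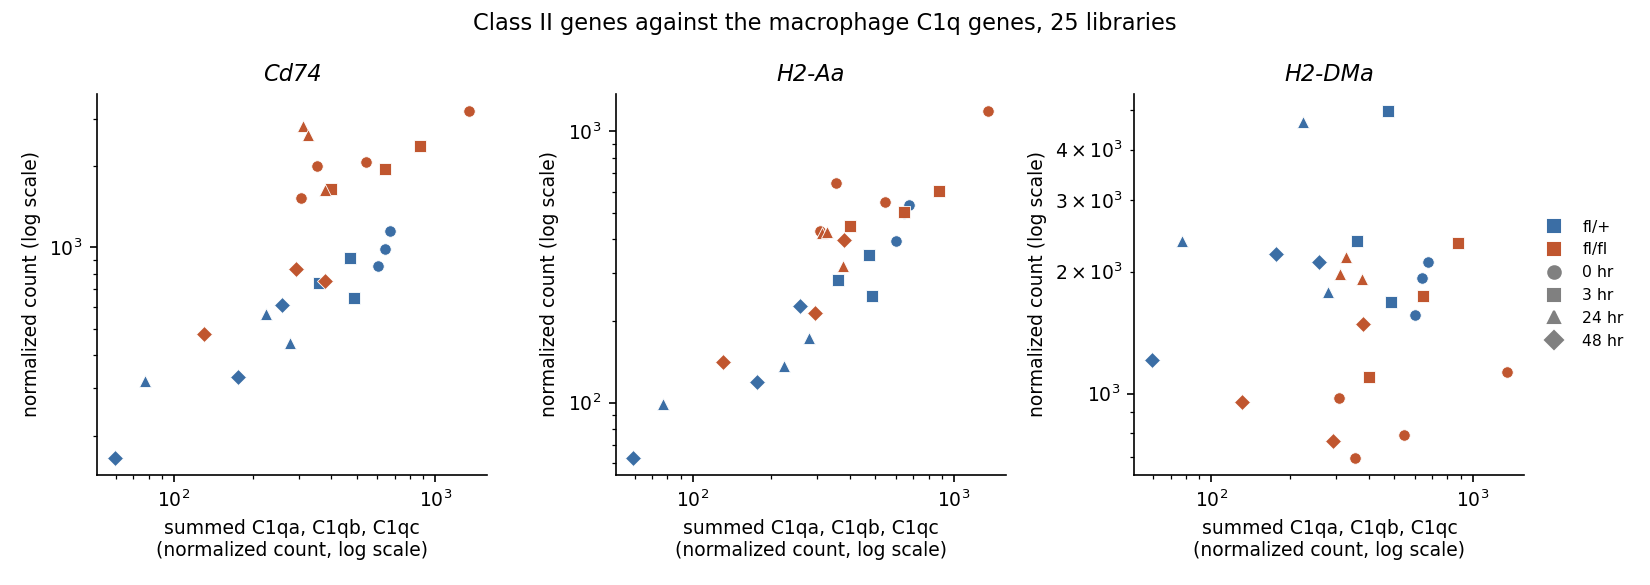
Normalized counts of Cd74, H2-Aa and H2-DMa (vertical axes, log scale) against the summed counts of C1qa, C1qb and C1qc (horizontal axes, log scale) in the 25 libraries, blue for fl/+ and red for fl/fl, with the symbol giving the hr. At 0, 3 and 24 hr each fl/fl mouse had more Cd74 for its C1q than each fl/+ mouse of that time, with ratios of up to 9.0.

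Of the 14 genes on the dendritic cell list 4 reached a mean of 10, and 2 of these, Wdfy4 and Cst3, carried its sum. At 0 hr 1 of the 4 was lower in fl/fl (Wdfy4), 0 passed at 3 and 48 hr, and 2 were higher at 24 hr. Itgax (CD11c) was at 6.73 to 237 normalized counts over all libraries, Flt3 at 2.70 to 18.3 and Zbtb46, the factor that marks classical dendritic cells, at 0 to 29. Xcr1, Clec9a and Siglech, markers of dendritic cell subsets chosen here after their values were seen, reached at most 3.06, 4.99 and 4.90. Batf3, a factor of 1 such subset and likewise chosen after its values were seen, had a mean under 10 and was not tested. It read 0, 1.66 and 2.75 in fl/+ and 8.16, 7.64 and 6.55 in fl/fl at 24 hr, and 2.24, 0.724 and 2.00 and 13.5, 42.3 and 2.46 at 48 hr. The highest value was that of fl/fl replicate 2 at 48 hr. At 24 hr the genotypes did not overlap, as was so for 33.9% of all genes tested. At 48 hr the lowest fl/fl value, 2.46, and the highest fl/+ value, 2.24, were both under the limit of 3 reads, so no separation is read there.
At 24 hr Itgax was higher in fl/fl, at 16.4, 64.9 and 18.4 in fl/+ and 232, 237 and 98.3 in fl/fl (2.65 ± 0.72, adjusted p = 0.019), in the group where Cd74, H2-Aa and H2-Eb1 were also higher. Cd86, a costimulatory ligand, was higher there too, at 7.40, 11.6 and 5.51 and 23, 26 and 30.1 (1.62 ± 0.52, adjusted p = 0.0456). Zbtb46, which was not tested, read 3.29, 4.99 and 1.84 and 28.2, 29 and 10.5. Its genotypes did not overlap at 0 hr either, at 0 in fl/+ and 4.22 to 7.96 in fl/fl. At 3 hr fl/+ reached at most 2.94 and fl/fl was at 5.92 to 16.25. At 48 hr they overlapped, with fl/+ up to 7.01 and fl/fl from 3.30. Several of these counts lie close to the limit of 3 reads. The Itgax call was lost without fl/+ replicates 1 or 3 or fl/fl replicates 1 or 2 (adjusted p 0.0738 to 0.0816) and that of Cd86 without fl/+ replicates 1 or 3 or fl/fl replicates 1, 2 or 3 (adjusted p 0.09 to 0.149). The same fl/fl mice of 24 hr had more transcript of some natural killer and innate lymphoid genes, which Itgax can accompany. The summed list overlapped between genotypes, at 25724, 18495 and 22182 in fl/+ and 18956, 18466 and 22879 in fl/fl. Of 9 such genes tested 5 were higher at 24 hr, Ncr1 at 4.93, 15 and 10.1 in fl/+ and 108, 118 and 59 in fl/fl (3.17 ± 0.84, adjusted p = 0.0164), Eomes, Nkg7, Klrk1 and Klrg1, while 1 was higher at 0 hr and 1 at 3 hr (Gzma both times) and 0 passed at 48 hr. Of all genes tested, 11%, 5.75% and 7.03% were higher at 0, 3 and 24 hr. The Ncr1 call was lost without fl/+ replicate 1 or fl/fl replicates 1 or 2 (adjusted p 0.0596 to 0.0699), that of Nkg7 without fl/+ replicates 1 or 3 or fl/fl replicates 1, 2 or 3 (adjusted p 0.0708 to 0.192) and that of Gzma at 3 hr without fl/+ replicate 2 or fl/fl replicate 1 (adjusted p 0.054 to 0.0541). Of the 13 genes of sorted thymocytes, 4 were lower in fl/fl at 0 hr, 0 passed at 3 hr, 6 were lower at 24 hr and 1 at 48 hr, among them Thy1 at 24 hr (-1.40 ± 0.22, adjusted p = 0.000299).

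Of the defining B cell genes shown, Ms4a1 (CD20) reached at most 0.661 normalized counts and Pax5 1.43, and Cd79a exceeded 11.1 in 1 library only, fl/+ replicate 2 at 3 hr with 41.5. Of the 12 genes on the list 4 were tested, and its sum was carried by Ighm, at 4618 to 19941, and Cd79b, at 368 to 2604. All mice lacked RAG1 and therefore mature B cells, so this sum is not read as mature B cells. The source of Ighm and Cd79b was not tested. Ighm was higher in fl/fl at 0 hr (0.87 ± 0.16, adjusted p = 0.000783) and at 3 hr (1.07 ± 0.18, adjusted p = 0.000581), while Cd79b was lower at all 4 times, so these 2 did not move together. Cd22, the next most abundant, was at 3.84 to 134 and was higher in fl/fl at 24 hr (3.02 ± 0.89, adjusted p = 0.0297), a call lost without fl/+ replicates 1 or 3 or fl/fl replicates 1, 2 or 3 (adjusted p 0.0536 to 0.106). The Cd79b call at 3 hr was lost without fl/+ replicates 1 or 2 or fl/fl replicate 1 (adjusted p 0.0531 to 0.0566).
Of the epithelial genes, Epcam was at 267 to 3451, and Cldn4 and Ccl25 were the next highest. Foxn1, the factor that defines thymic epithelium, was at 0 to 18.7 and its highest values were those of fl/+ at 0 hr, 18.7, 10.6 and 10.6. Other genes of the list, chosen here after their values were seen, were above 0 in all 25 libraries. Aire was at 2.17 to 189, Psmb11 at 9.17 to 128 and Prss16 at 16.8 to 151. Of 9 epithelial genes tested 0 passed between genotypes at 0 and 3 hr, Cldn4 was lower in fl/fl at 24 hr (-3.20 ± 0.84, adjusted p = 0.0158, a call lost without fl/+ replicate 3 or fl/fl replicate 1) and Epcam higher at 48 hr (1.62 ± 0.22, adjusted p = 8.57e-05). In fl/+, 7 of the 9 fell at each of 3, 24 and 48 hr, where 18.5%, 16.9% and 20.8% of all genes were lower. Of the neutrophil genes, Mpo, Cxcr2 and S100a9 were the highest, at most 29.6, 64.5 and 11.8. Of the erythroid and stromal genes, with 10 of 12 found, Pecam1, Hba-a1 and Alas2 were the highest, and of 4 tested 1 passed between genotypes by limma at 0 hr, Col1a1 (-1.36 ± 0.41, adjusted p = 0.0231), and 0 at the later times. The Col1a1 call was lost without fl/+ replicates 2 or 3 or fl/fl replicates 3 or 4 (adjusted p 0.0563 to 0.0954). Of 2 neutrophil genes tested 0 passed between genotypes. The median log2 differences at 0, 3, 24 and 48 hr were 0.05, 0.15, 0.93 and 0.40 for the dendritic list, 0.35, 0.36, 0.51 and 0.51 for the B cell list, -0.48, 0.19, -0.08 and 0.28 for the epithelial list, 0.70, 1.90, 2.37 and 0.45 for the innate lymphoid list and -0.77, -0.31, -0.56 and -0.28 for the thymocyte list.

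**Figure D5:**
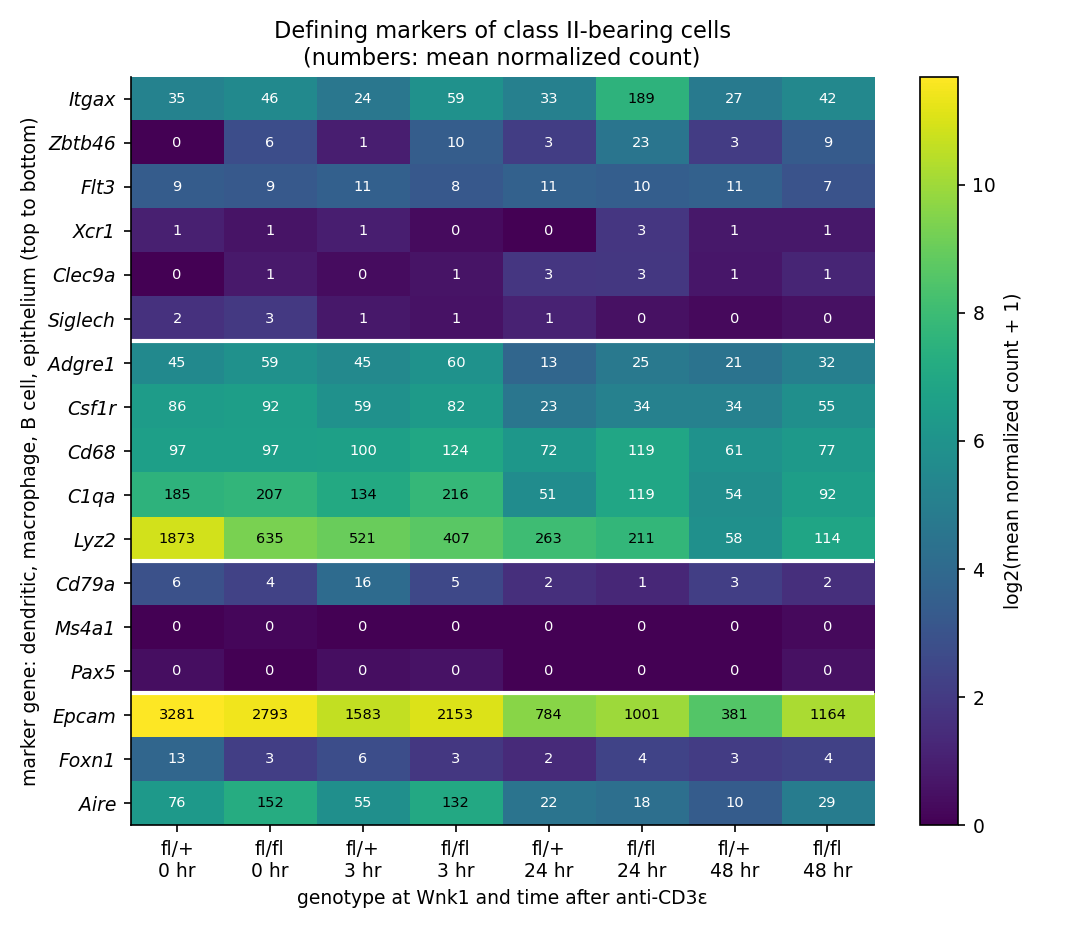
Mean normalized count (number in each cell, colour on a log2 scale) of defining markers of dendritic cells, macrophages, B cells and thymic epithelium, top to bottom, in the 8 groups of 3 or 4 libraries, left to right. The plotted macrophage genes were read in every group, and the plotted B cell genes Ms4a1 and Pax5 had means that round to 0, while Itgax and Zbtb46 were highest in fl/fl at 24 hr.

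The genes whose pattern was most like the mean of the 7 members over the 25 libraries, by Pearson's correlation of log2 values, were Orai3 (r = 0.89), Aif1 (0.88), C1qb (0.86), Tyrobp (0.85) and Cyfip1 (0.85), followed by Plbd1, S100a1, Haghl, C1qa and Fbxw9 (0.84 to 0.82). Aif1, C1qa, C1qb and Tyrobp are known for their expression in macrophages, and Tyrobp is shared with natural killer cells. The other genes named, Orai3 at the top among them, are not on the macrophage list. With the group means taken out, the 10 nearest were Zfp672 (0.87), Psenen-ps, Tyrobp, Neu1, Ctu2, Tmem229b, C1qb, Zfp523, Dhx35 and Orai3 (0.82), so Tyrobp, C1qb and Orai3 were on both lists. These are descriptions over libraries that share scaling and, in part, sex and lane, with no test.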

How the data were processed

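Poly(A) RNA of sorted thymocytes from 25 mice was read as stranded single-end libraries of 75 bases. Per the labels and the methods of the study, the authors trimmed reads with Trimmomatic 0.36, aligned and counted them with STAR 2.5.2a and RSEM 1.2.31 on GRCm38 with Ensembl release 86, and scaled them with DESeq2 1.18.1. The deposited signal is the gene count divided by the library's size factor, called the normalized count here. Values were whole multiples of 1 step per library within 0.001, so whole reads were recovered, and the low-value test of this was met in 23 of 25 libraries. Depth was 22527777 to 57304830 reads a library.

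Rows whose mean reached 10 were tested on log2(value + 1) with limma 3.58.1 in R 4.3.3, in 1 fit of all 8 groups without covariates, and called at a Benjamini-Hochberg adjusted p of at most 0.05 over 14141 genes. Since the deposited unit is not a count, this replaced a count model, and edgeR 4.0.16 and DESeq2 1.42.0 on the recovered reads were alternatives. The script was tested on simulated data. Alternatives also covered pseudocount, filter, scaling, the samples fitted, lane, replicate block and each library left out, and the fit without 4 libraries that stand apart was chosen after seeing the data. The members and gene lists were chosen with earlier results of these data known. Genes named are the members, genes of the 3 class II lists that passed a genotype comparison, the 3 most abundant of each marker list with defining markers set beside them, of which 1 is not reported here, and the 10 tested genes most like the members, and any others were chosen after their values were seen. Limits of 3 reads cover counting error only.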

Additional observations from a re-analysis of the deposited data

How the results depend on the processing

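Of 1891 log2 differences of the members refitted under other settings, 1795 kept their direction and side of the threshold, 68 lost a call, 28 gained one and none that was called reversed. Another 63 changed sign while called in neither setting. Of 23 calls of members, 4 held in every fit: Cd74 between genotypes at 24 hr, H2-Ab1 in fl/+ at 48 hr, and Cd74 and H2-Ab1 in fl/fl at 48 hr.
Between genotypes, 3 members were called at 0 hr, 1 with lane as a term, and 1 to 3 with a library left out. At 3 hr 2 were called, 1 with no filter, with a mean of at least 100 or with only the groups compared, 0 without the 4 libraries that stand apart, and 0 to 2 with a library left out. At 24 hr 3 were called, and 1 to 4 with a library left out. At 48 hr 0 were called, 1 with the same total or the same upper quartile, and 0 to 2 with a library left out.
In fl/+, 0 were called at 3 hr, 1 with a mean of at least 100, the replicate block or DESeq2, 2 with the same total or only the groups compared, and 0 to 2 with a library left out. With lane as a term the 3 calls at 24 hr became 0 and the 5 at 48 hr became 1. In fl/fl, 0 were called at 3 hr, 2 with only the groups compared or without the 4 libraries, 1 with DESeq2, and 0 to 1 with a library left out. The 2 calls at 24 hr became 0 with lane as a term, and the 5 at 48 hr became 3 with the replicate block or without the 4 libraries, and 2 to 5 with a library left out. In the interaction at 3 hr, 0 were called, and 0 to 1 with a library left out. The cause of these changes was not tested.
Replicate numbers name different mice, and deviations of like-numbered libraries correlated at -0.197 to 0.205, so the numbers do not pair them. With the replicate block 2, 2, 3 and 0 members were called between genotypes, 1, 3 and 4 in fl/+, 0, 2 and 3 in fl/fl, and 0 in each interaction. Ciita had the fewest reads, 13 to 101 a library.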
